A study of Mus musculus with 6 samples.

Results

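The genes described here are 7 genes of the sodium pump and of the ion exchangers and calcium pumps that work beside it in the membrane of heart cells, namely Atp1b1, Fxyd1, Slc8a1, Slc4a3, Slc12a2, Atp2b1 and Atp2b4. They were taken by gene symbol from the 23537 symbols of the deposited table, all 7 were found in 1 row each, and all 7 reached 1 FPKM in both groups. FPKM is fragments per kilobase of exon relative to all mapped fragments, so that levels of genes of different length can be set side by side. RNA came from the heart ventricles of male C57BL/6-FVB mice aged 6 to 8 weeks. The HIF-PPN hearts were from 3 mice withdrawn from doxycycline for 3 days, and the control hearts from 3 mice kept on doxycycline. All of the mice carried both transgenes of a Tet-Off system, that is a tetracycline transactivator driven by the αMHC promoter, which is active in cardiomyocytes, and HIF1α-PPN, a HIF1α whose hydroxylated residues were replaced so that it is stable in normal oxygen. Doxycycline keeps this HIF1α off, so the loss of the drug and the expression of HIF-PPN cannot be told apart in these groups. The authors had merged the 3 hearts of each group into 1 value per gene. A difference at a single gene therefore has no replicate check, no test was possible, and the values below are descriptions of these 2 merged groups.

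The sodium pump exports sodium and imports potassium at the cost of ATP, and the sodium gradient it builds drives most of the exchangers of the cardiomyocyte membrane. It consists of a catalytic alpha subunit and a beta subunit, which brings the pump to the membrane, and in heart its activity is adjusted by phospholemman, a small FXYD protein. The sodium-calcium exchanger spends the sodium gradient to remove the calcium that enters with each beat. Plasma membrane calcium pumps remove a smaller part of that calcium with ATP. The sodium-proton and bicarbonate exchangers set the pH of the cell, and the sodium-potassium-chloride cotransporter brings chloride into the cell and helps to set its volume.

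HIF1 target genes were read as a check of the model. Of 20 such genes, 16 were higher in HIF-PPN hearts, against 52.1% of the 12092 genes given below. Their median log2 fold change was 0.31. The largest was that of the carbonic anhydrase gene Car9, at 21.2 FPKM in HIF-PPN hearts and 1.89 FPKM in control hearts (log2 fold change 3.49). The 4 lower ones were Vegfa, at 134 FPKM in HIF-PPN hearts and 156 FPKM in control hearts (−0.22), Ddit4 (−0.43), Ndrg1 (−0.051) and Ankrd37 (−0.040). Hif1a was at 25.9 FPKM in HIF-PPN hearts and 35.3 FPKM in control hearts, and it is not known whether transgene reads were assigned to it. Over the 12092 genes that reached 1 FPKM in at least 1 group and had a value above 0 in both, the median log2 fold change was 0.012 and the quartiles were −0.16 and 0.20. The ventricular label was read against markers: the ventricular myosin light chain gene Myl2 was at 12096 FPKM in HIF-PPN hearts and 12804 FPKM in control hearts. Atrial markers were present too, at a sum of 1912 FPKM in HIF-PPN hearts and 2633 FPKM in control hearts. The largest part of this sum was Nppa, at 875 FPKM in HIF-PPN hearts and 1235 FPKM in control hearts. The atrial light chain gene Myl7 was at 502 FPKM in HIF-PPN hearts and 623 FPKM in control hearts. The depth behind the values is unknown.

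Slc8a1, which encodes the cardiac sodium-calcium exchanger, was the 1 gene of the 7 that stood apart between the groups, at 30.0 FPKM in HIF-PPN hearts and 50.7 FPKM in control hearts, a log2 fold change of −0.76. The other 6 genes lay within 0.25 of 0 on the log2 scale, as did 63.8% of all expressed genes. None of the 7 genes was at least 2-fold lower, against 1.08% of expressed genes, and none was at least 2-fold higher, against 2.11%. Slc8a1 alone was at least 1.5-fold lower and none was at least 1.5-fold higher, against 3.99% of expressed genes lower and 5.43% higher by that fold. Over the 7 genes, 5 were lower and 2 higher (median log2 fold change −0.033), and this count became 3 lower and 4 higher, with a median of 0.028, when both groups were scaled to the same summed FPKM. Of all expressed genes, 47.9% were lower and 52.1% higher as deposited, and 38.4% were lower after that scaling, which moved every log2 fold change up by 0.061.

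**Figure D1:**
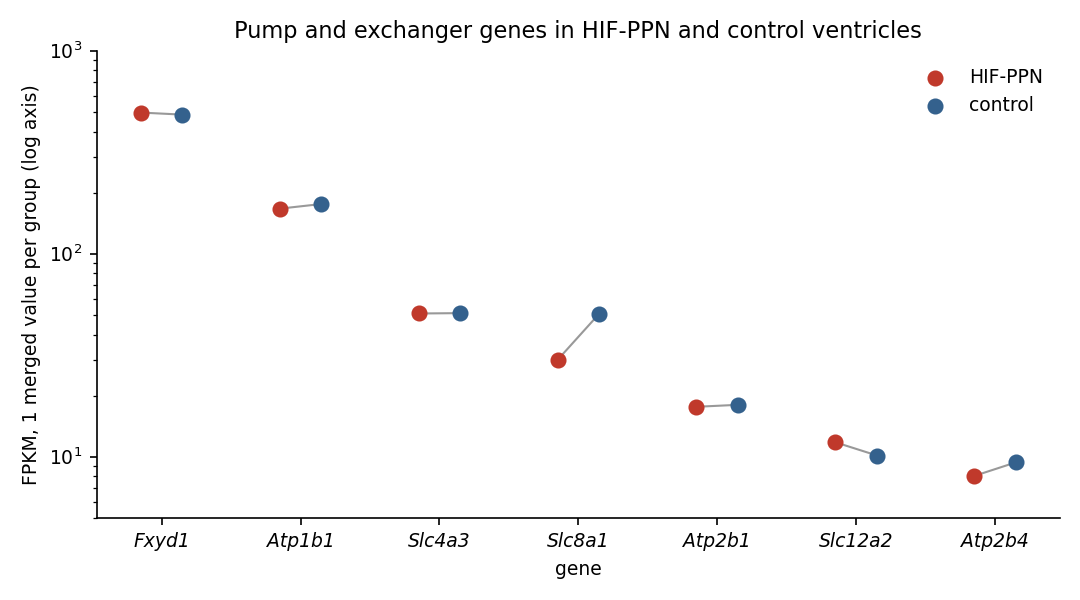
FPKM of the 7 genes (log axis), with 1 merged value for HIF-PPN hearts (red, left) and 1 for control hearts (blue, right) of each gene, so no error bars can be drawn. Slc8a1 shows the steepest line, at 30.0 FPKM in HIF-PPN and 50.7 FPKM in control hearts, while Slc4a3, near the same control level, was at 50.8 FPKM in HIF-PPN and 51.0 FPKM in control hearts.

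The sequences before the starts of Slc8a1 and of the pump gene Atp1b1 are given because they belong to the gene with the lowest fold of the 7 and to the pump subunit gene among them. Both are from RefSeq on GRCm38.p6, cover the 250 bases before the annotated start, which in both genes is also the end of the gene's span in the deposited table, and are written 5′ to 3′ on the gene's own strand. Capitals mark GCGTG, a core of the hypoxia response element to which HIF1 binds. The Slc8a1 stretch lies at chr17:81738388-81738637 on the minus strand and the Atp1b1 stretch at chr1:164458356-164458605 on the minus strand.
Slc8a1: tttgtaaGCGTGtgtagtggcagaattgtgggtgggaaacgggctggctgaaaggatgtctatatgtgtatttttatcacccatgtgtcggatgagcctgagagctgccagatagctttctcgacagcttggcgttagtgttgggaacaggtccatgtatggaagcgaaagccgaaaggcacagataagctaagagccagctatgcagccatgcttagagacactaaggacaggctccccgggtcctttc
Atp1b1: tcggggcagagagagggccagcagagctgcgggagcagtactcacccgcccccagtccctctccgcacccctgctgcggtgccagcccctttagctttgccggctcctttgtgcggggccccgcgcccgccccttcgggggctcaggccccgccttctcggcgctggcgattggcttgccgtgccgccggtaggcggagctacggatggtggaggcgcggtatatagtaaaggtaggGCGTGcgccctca
The match begins 243 bases before the start in Slc8a1 and 13 bases before it in Atp1b1. The motifs ACGTG and GCGTG were searched on both strands in windows from 250 bases before to 50 bases after each start, and 43.8% of all 32851 windows in the table hold at least 1 of them, so that a match is common. The windows of Fxyd1 and Atp2b4 held neither motif, and a window of Slc12a2 was not analysed here. The Fxyd1 window, chr7:31054804-31055103, lies inside the gene's span in the deposited table. That of Atp2b4, chr1:133753698-133753997, lies inside its RefSeq span. Any start of these genes further out was not searched.

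Slc4a3 had GCGTG 2 times in its window and Atp2b1 had both motifs over its 2 windows. These short stretches are shown to give the place of each match among the other genes, with the motif, ACGTG or GCGTG, in capitals on the gene's plus strand, at chr1:75546289-75546313, chr1:75546355-75546379, chr10:98914640-98914664 and chr10:98915145-98915169 of GRCm38.p6.
Slc4a3, upstream match: cccccgcaatGCGTGgggcgcctgg
Slc4a3, downstream match: gcgcggggccCACGCtggcctggtc
Atp2b1, first window: cgggccgcgtCACGTGaccgcgccc
Atp2b1, second window: tcgcggtgcaGCGTGagtagggagc
In the second Slc4a3 stretch GCGTG lies on the opposite strand and is read here as CACGC. Both Slc4a3 stretches lie inside the gene's span in the deposited table, which begins at 75546266, and not before it. In the first Atp2b1 stretch ACGTG is found on both strands of the same 6 letters, CACGTG, which are also an E-box. A match of letters is no evidence of binding, and whether these starts were the ones used in the hearts was not analysed here.

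Atp1b1 encodes the beta subunit that pairs with most of the pump in heart. It was at 167 FPKM in HIF-PPN hearts and 176 FPKM in control hearts (log2 fold change −0.076), which is 94.9% of the control level. It was the main beta subunit gene in both groups, with 75.1% of the summed FPKM of the beta subunit genes in HIF-PPN hearts and 74.8% in control hearts. In the deposited table its locus, chr1:164307675-164458355 of GRCm38, is shared with Nme7, whereas the RefSeq gene spans 164437099 to 164458355 and overlaps the end of Nme7. Nme7, which is not a pump gene, was at 3.21 FPKM in HIF-PPN hearts and 2.50 FPKM in control hearts, far below Atp1b1.

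Fxyd1 encodes phospholemman, which restrains the pump until it is phosphorylated. With 496 FPKM in HIF-PPN hearts and 485 FPKM in control hearts (log2 fold change 0.034), it was the most abundant of the 7 genes and ranked 125 among expressed genes by its mean. It made up 89.9% of the summed FPKM of the FXYD genes in HIF-PPN hearts and 90.3% in control hearts. The gene lies at chr7:31051678-31055656. The RefSeq noncoding RNA gene Gm38984 overlaps it, and since the sources used here do not say whether reads were counted by strand, reads of both cannot be told apart.

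The other beta subunit genes were also a little lower in HIF-PPN hearts. Atp1b3 was at 42.7 FPKM in HIF-PPN hearts and 44.2 FPKM in control hearts (log2 fold change −0.051). Atp1b2, known from the brain, was at 12.5 FPKM in HIF-PPN hearts and 14.9 FPKM in control hearts (−0.26). All 3 expressed genes of the 4 beta subunit genes were thus lower, their median being −0.076 (log2), against 47.9% of all expressed genes lower. Under the scaling to the same summed FPKM 2 of 3 were lower, against 38.4% of all expressed genes. Atp1b4 was below 1 FPKM in both groups. In sum the beta subunit genes were lower by −0.082 on the log2 scale. The FPKM ratio of Fxyd1 to Atp1b1 was 2.97 in HIF-PPN hearts and 2.76 in control hearts. This ratio is free of the scaling of a group, but it too has no replicate check.

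Among the other FXYD genes, Fxyd5, which encodes dysadherin, was at 24.7 FPKM in HIF-PPN hearts and 18.4 FPKM in control hearts (log2 fold change 0.43). Fxyd6 was at 25.9 FPKM in HIF-PPN hearts and 28.9 FPKM in control hearts (−0.16), and Fxyd2, known as the gamma subunit of the kidney pump, was at 2.59 FPKM in HIF-PPN hearts and 2.52 FPKM in control hearts. Of 5 expressed FXYD genes, 4 were higher and 1 lower in HIF-PPN hearts, with a median of 0.042, against 52.1% of all expressed genes higher. None differed 1.5-fold, against 3.99% of all expressed genes lower and 5.43% higher by that fold.

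Slc8a1 encodes NCX1, the exchanger that trades sodium for calcium across the cardiomyocyte membrane and the main route by which calcium leaves the cell. At 59.2% of its control FPKM it was 1.69-fold lower in HIF-PPN hearts. Of the 12092 expressed genes, 260 (2.15%) had a log2 fold change as low or lower. It ranked 1373 among expressed genes in control hearts, close to Slc4a3 at rank 1363, whose log2 fold change was −0.0060. Under each pseudocount and scaling tried, the log2 fold change of Slc8a1 stayed between −0.77 and −0.67. The gene spans 365 kb at chr17:81373105-81738387, and RefSeq lists 21 transcripts for it. In rodents it is known to start from separate promoters in heart, kidney and brain. The gene value adds the transcripts up, and single transcripts were not analysed here.

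The sister genes of Slc8a1 in the plasma membrane contributed little. Slc8a2 was at 0.590 FPKM in HIF-PPN hearts and 0.260 FPKM in control hearts, and Slc8a3 was at 0.106 FPKM in HIF-PPN hearts and 0.131 FPKM in control hearts. Slc8a1 thus held 97.7% of the summed FPKM of these 3 genes in HIF-PPN hearts and 99.2% in control hearts, and the sum was lower by −0.73 on the log2 scale. Slc8b1, which encodes the sodium-calcium exchanger of mitochondria, was at 5.25 FPKM in HIF-PPN hearts and 5.60 FPKM in control hearts (log2 fold change −0.094). Of the potassium-dependent exchanger genes, Slc24a3 was at 1.16 FPKM in HIF-PPN hearts and 1.28 FPKM in control hearts (−0.14). Slc24a5 was at 0.645 FPKM in HIF-PPN hearts and 1.60 FPKM in control hearts (−1.31). It passed the filter on low values only through the control group and so had to be lower. The other 3 expressed genes of this family were lower, also under each scaling tried, against 47.9% of all expressed genes lower as deposited.

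Among 10 genes listed as ventricular cardiomyocyte markers, 9 were lower in HIF-PPN hearts, against 47.9% of all expressed genes. Under the scaling to the same summed FPKM 7 of the 10 were lower, against 38.4% of all expressed genes. The summed level of the 10 was 41503 FPKM in HIF-PPN hearts and 46742 FPKM in control hearts (log2 ratio −0.17), with none of them at 0. Ryr2, which encodes the channel that releases calcium from the sarcoplasmic reticulum, was at 116 FPKM in HIF-PPN hearts and 193 FPKM in control hearts (log2 fold change −0.74). Atp2a2, the calcium pump gene of the sarcoplasmic reticulum, was at −0.36, so that the FPKM ratio of Slc8a1 to Atp2a2 was 0.0086 in HIF-PPN hearts and 0.0113 in control hearts. Both were picked from the marker list with their values in view, and the other markers were not uniform. Pln was at −0.64, but Myh6 was at −0.086, Myl3 at −0.048 and Tnnt2 at −0.039. The 1 higher marker was Mybpc3, at 0.40. The study cites its earlier work, in which expression of SERCA2 (Atp2a2), RYR2 and PLN was decreased in this model, and all of these are on the marker list. In bulk tissue, fewer cardiomyocytes, less RNA per cardiomyocyte and lower levels of particular genes cannot be told apart. The part of the marker difference in the Slc8a1 value was not tested.

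**Figure D2:**
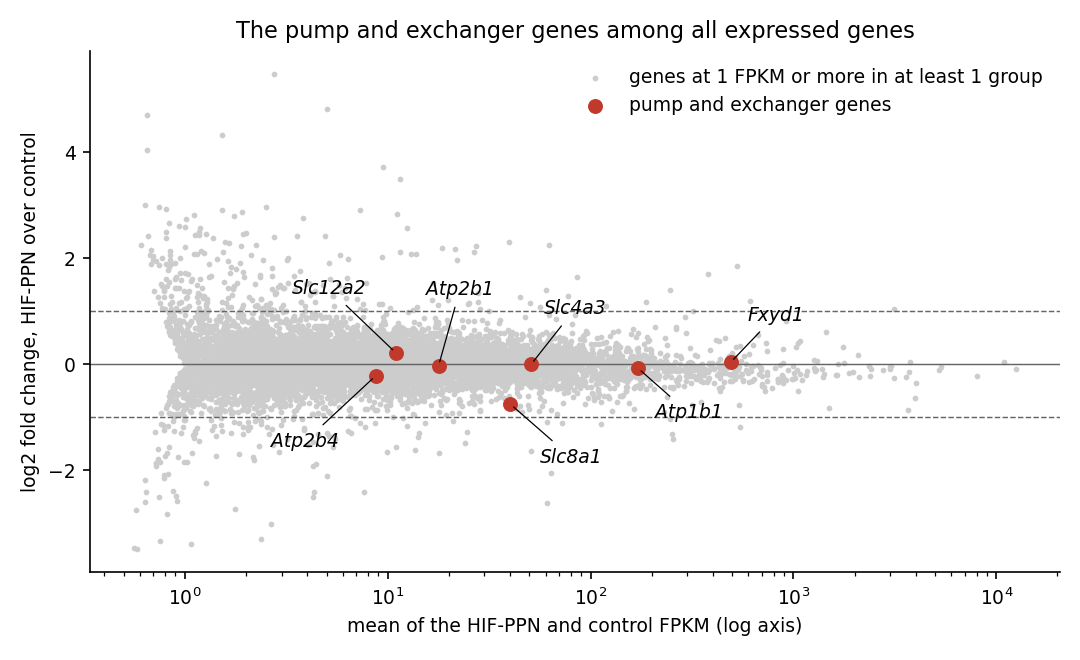
Log2 fold change of HIF-PPN over control against the mean FPKM (log axis) for every expressed gene (grey), with the 7 genes in red and dashed lines at a 2-fold difference. Slc8a1, at −0.76, had 2.15% of expressed genes as low or lower, and the other 6 lie within 0.25 of 0.

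Of the plasma membrane calcium pump genes, Atp2b1 was close to its control level. Atp2b4 was lower, with 18.7% of expressed genes as low or lower. Atp2b1, which encodes PMCA1, the widely expressed form, was at 17.6 FPKM in HIF-PPN hearts and 18.0 FPKM in control hearts (log2 fold change −0.033, or 0.028 after scaling to the same summed FPKM). Atp2b4, which encodes PMCA4, a form that binds signalling proteins such as neuronal nitric oxide synthase, was at 8.04 FPKM in HIF-PPN hearts and 9.39 FPKM in control hearts (−0.22). Of the summed FPKM of the 4 pump genes, Atp2b1 held 68.0% in HIF-PPN hearts and 65.1% in control hearts, and Atp2b4 held 31.1% in HIF-PPN hearts and 33.9% in control hearts. Atp2b2 and Atp2b3, known from brain and other excitable tissue, were at 0.113 and 0.117 FPKM in HIF-PPN hearts and at 0.188 and 0.0962 FPKM in control hearts. Set against these pumps, the sodium-calcium exchanger gene was at 1.70 times the FPKM of Atp2b1 in HIF-PPN hearts and at 2.81 times in control hearts. Atp2b1 lies at chr10:98915152-99026143 and Atp2b4 at chr1:133702674-133753747. The RefSeq span of Atp2b4 reaches 133801059, past the span in the deposited table, and holds the microRNA gene Mir6903.

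Slc4a3 encodes AE3, the chloride-bicarbonate exchanger of heart and brain, which loads the cell with acid. Its 50.8 FPKM in HIF-PPN hearts and 51.0 FPKM in control hearts (log2 fold change −0.0060) were the closest pair among the 7 genes, and the sign turned to 0.055 after scaling to the same summed FPKM. It held 60.4% of the summed FPKM of 12 bicarbonate transporter genes in HIF-PPN hearts and 59.9% in control hearts. The gene lies at chr1:75546266-75559431. Slc4a4, which encodes the electrogenic sodium-bicarbonate cotransporter, was also near its control level, at 9.43 FPKM in HIF-PPN hearts and 9.45 FPKM in control hearts. Slc4a2, which encodes the exchanger AE2, was at 10.5 FPKM in HIF-PPN hearts and 9.78 FPKM in control hearts (0.099). Slc26a6, an anion exchanger gene also known from the heart, was at 7.73 FPKM in HIF-PPN hearts and 6.47 FPKM in control hearts (0.26).

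Among bicarbonate transporters, Slc4a7, which encodes the electroneutral sodium-bicarbonate cotransporter NBCn1, stood apart at 3.93 FPKM in HIF-PPN hearts and 6.51 FPKM in control hearts (log2 fold change −0.73). Slc26a3 was at 0.469 FPKM in HIF-PPN hearts and 1.11 FPKM in control hearts, and like Slc24a5 it passed the filter only through the control group. Of 6 expressed bicarbonate transporter genes, 4 were lower and 2 higher, with a median of −0.0047, against 47.9% of all expressed genes lower. With both groups scaled to the same summed FPKM 2 were lower and 4 higher, against 38.4% of all expressed genes lower.

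The sodium-proton exchangers bring sodium in and acid out, and those of inner membranes do the like in endosomes and the Golgi. Slc9a8 had 12.1 FPKM in both groups, and Slc9a9 was at 1.92 FPKM in HIF-PPN hearts and 2.22 FPKM in control hearts (log2 fold change −0.21). The log2 fold change of Slc9a2 was −0.44. Slc9a7, which encodes an exchanger of the Golgi, was lower by the largest fold among the expressed genes of this family, at 1.17 FPKM in HIF-PPN hearts and 2.54 FPKM in control hearts (−1.12). All 4 expressed genes counted here were lower, Slc9a8 by less than 0.01 on the log2 scale, against 47.9% of all expressed genes. Under the scaling to the same summed FPKM 3 of 4 were lower, against 38.4% of all expressed genes.

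Slc12a2 encodes NKCC1, which carries sodium, potassium and chloride into the cell. It was at 11.8 FPKM in HIF-PPN hearts and 10.1 FPKM in control hearts (log2 fold change 0.22), the highest fold among the 7 genes, and 22.6% of expressed genes had a fold as high or higher. The gene lies at chr18:57878678-57946821. The potassium-chloride cotransporters work against it and carry chloride out. Their most abundant gene, Slc12a7, was at 61.1 FPKM in HIF-PPN hearts and 65.3 FPKM in control hearts (−0.097). Slc12a4, which encodes KCC1, stood higher, at 25.9 FPKM in HIF-PPN hearts and 16.9 FPKM in control hearts (0.61). Slc12a9, whose product is of the same family, was at 3.08 FPKM in HIF-PPN hearts and 2.80 FPKM in control hearts (0.14). The FPKM ratio of Slc12a7 to Slc12a2 was 5.18 in HIF-PPN hearts and 6.44 in control hearts. Slc12a2 held 11.4% of the summed FPKM of the 8 genes counted here in HIF-PPN hearts and 10.6% in control hearts, and Slc12a4 held 25.1% in HIF-PPN hearts and 17.7% in control hearts. Of 4 expressed genes, 3 were higher and 1 lower, against 52.1% of all expressed genes higher. The median of the 4 was 0.18, and it was 0.61 when genes below 1 FPKM were counted too.

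**Figure D3:**
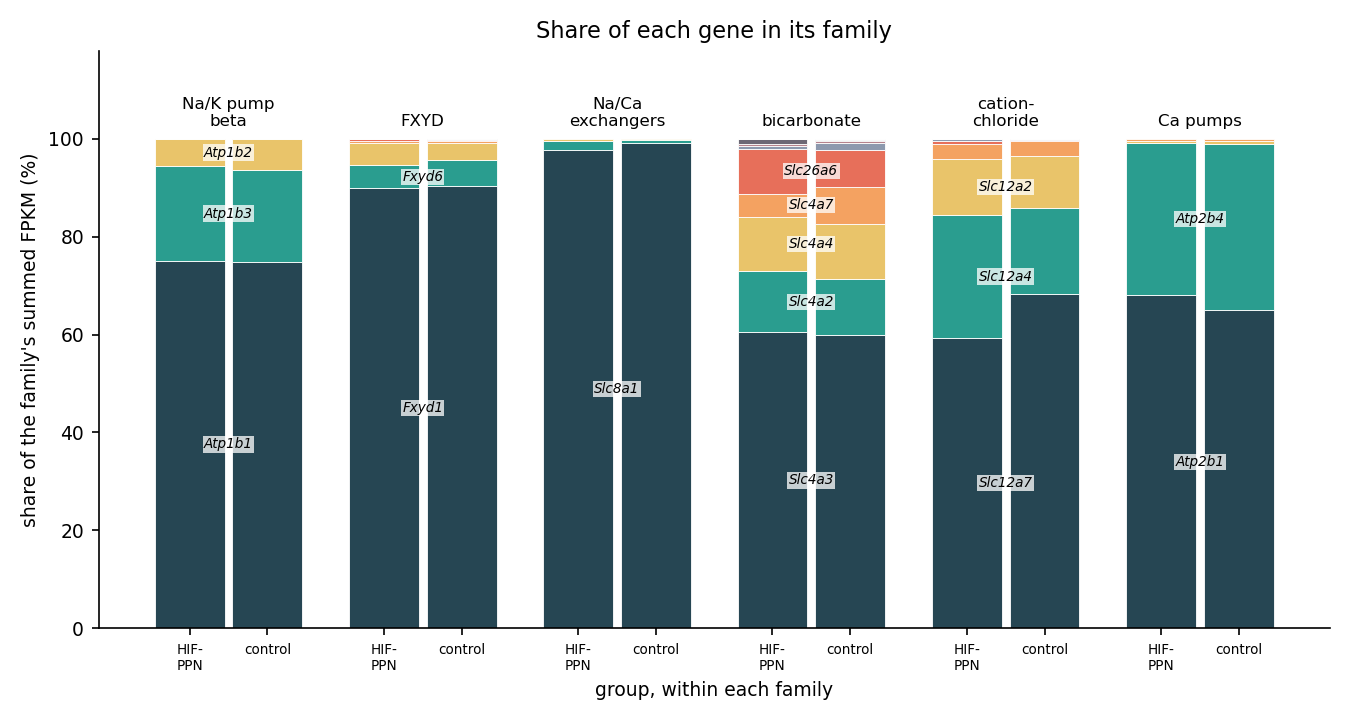
Share of each gene in the summed FPKM (%) of the listed genes of its family, for HIF-PPN hearts (left bar of each pair) and control hearts (right bar), with genes of 5% or more in control hearts named. The leading gene was the same in both groups in each of the 6 families drawn, and in the cation-chloride family Slc12a4 held 25.1% in HIF-PPN and 17.7% in control hearts.

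Over the 7 transporter families the lists held 51 genes, all found in the table, of which 28 reached 1 FPKM in at least 1 group. Of these 28, 19 were lower and 9 higher in HIF-PPN hearts (median log2 fold change −0.063), against 47.9% of all expressed genes lower, and 2 of the 19 had passed the filter through the control group alone and had to be lower. No gene had passed through HIF-PPN hearts alone. After scaling to the same summed FPKM 14 were lower and 14 higher, against 38.4% of all expressed genes lower under that scaling. At least 1.5-fold lower were 5 genes (Slc8a1, Slc4a7, Slc9a7, Slc24a5 and Slc26a3), the last 2 of which are those fixed by the filter, against 3.99% of all expressed genes. Slc12a4 was the 1 gene at least 1.5-fold higher, against 5.43%. Among the 13 of them at 10 FPKM or more in control hearts, only Slc8a1 was lower and only Slc12a4 higher by that fold, against 2.38% and 1.63% of all genes at that level.

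**Figure D4:**
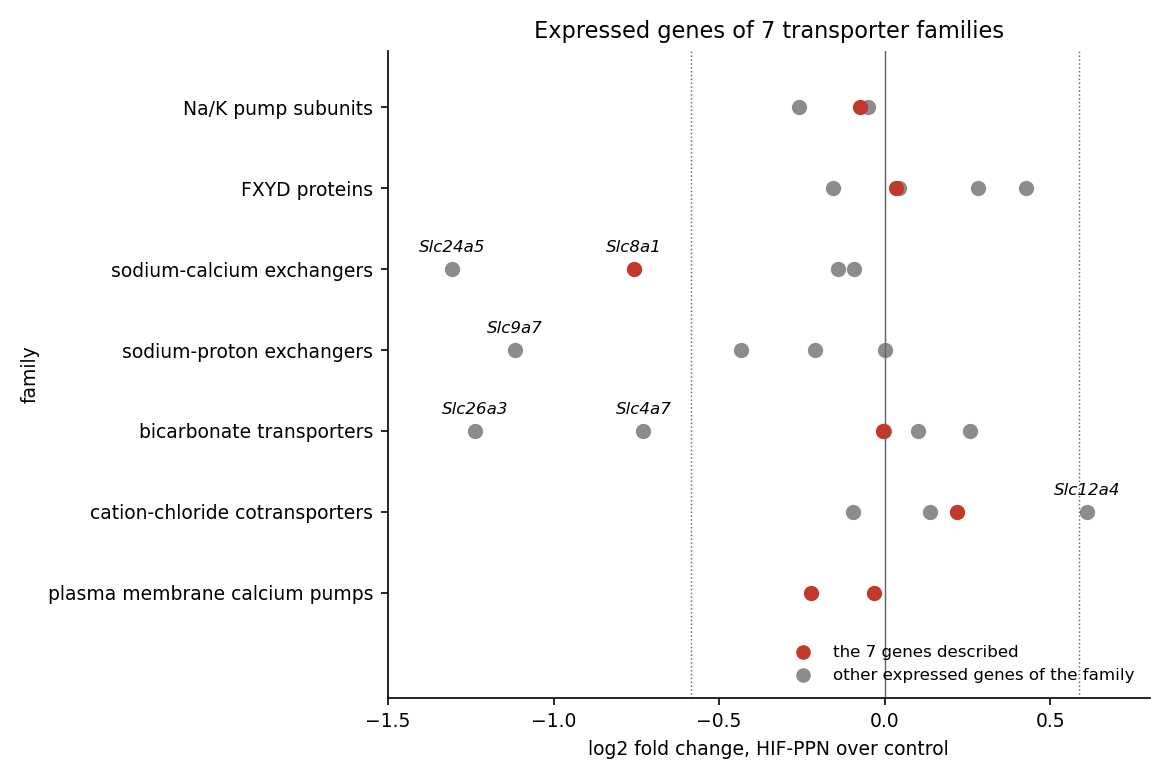
Log2 fold change of HIF-PPN over control for the 28 expressed genes listed in the 7 families, 1 row per family, with the 7 genes described in red, other genes in grey and dotted lines at a 1.5-fold difference. Genes beyond the dotted lines are named, and Slc8a1 (−0.76) is the 1 red point among them.

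Genes that regulate or anchor these transporters were read from a list of 19. Prkaca, the catalytic subunit of the kinase that phosphorylates phospholemman, was at 161 FPKM in HIF-PPN hearts and 162 FPKM in control hearts. Wnk1, a kinase upstream of NKCC1, was at 112 FPKM in HIF-PPN hearts and 110 FPKM in control hearts. Calmodulin activates the plasma membrane calcium pumps, and its genes Calm2 and Calm3 were at log2 fold changes of −0.065 and 0.30. Among 18 expressed genes of this list, 11 were lower and 7 higher, with a median of −0.077, against 47.9% of all expressed genes lower. At least 1.5-fold lower were 3 genes of the list, against 3.99% of all expressed genes. These were the carbonic anhydrase genes Car2 (2.32 FPKM in HIF-PPN hearts and 4.61 FPKM in control hearts, log2 fold change −0.99) and Car4 (11.4 FPKM in HIF-PPN hearts and 18.6 FPKM in control hearts, −0.70), whose enzymes supply bicarbonate to the exchangers, and Ppp1r1a, which encodes an inhibitor of protein phosphatase 1 (1.06 FPKM in HIF-PPN hearts and 1.90 FPKM in control hearts, −0.85). Car14, the most abundant carbonic anhydrase gene of this list, was near its control level. It was at 86.9 FPKM in HIF-PPN hearts and 93.4 FPKM in control hearts (−0.10). Car9, given above among the HIF1 targets, was higher.

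Markers of other cells of the heart also differed between the groups, and their part in the values above was not tested. Of all expressed genes, 47.9% were lower as deposited and 38.4% under the scaling to the same summed FPKM. Endothelial markers were lower in 7 of 8 cases, and in 5 of 8 under that scaling (433 FPKM in sum in HIF-PPN hearts and 477 FPKM in control hearts). Macrophage markers were lower in 7 of 7 (215 FPKM in HIF-PPN hearts and 255 FPKM in control hearts) and atrial cardiomyocyte markers in 5 of 6. Fibroblast markers were lower in 4 of 8 cases (740 FPKM in HIF-PPN hearts and 830 FPKM in control hearts), as were smooth muscle and pericyte markers (363 FPKM in HIF-PPN hearts and 468 FPKM in control hearts). Adipocyte markers differed most. The 7 expressed ones were higher, with a median log2 fold change of 2.08, though Plin1 and Retn had passed the filter through HIF-PPN hearts alone and had to be higher. Their sum was mostly Fabp4, which endothelial cells also express, at 1233 FPKM in HIF-PPN hearts and 916 FPKM in control hearts. The other 6 were 3.92-fold to 7.51-fold higher and summed to 52.1 FPKM in HIF-PPN hearts and 10.5 FPKM in control hearts, among them Adipoq, which encodes adiponectin, at 8.24 FPKM in HIF-PPN hearts and 1.55 FPKM in control hearts. Lep was below 1 FPKM in both groups. Skeletal muscle markers summed to 1650 FPKM in HIF-PPN hearts and 1414 FPKM in control hearts, almost all of it from Acta1 and Ckm, which heart also expresses, while the skeletal myosin gene Myh4 was at 0 in both groups. Acta1 was higher, at 579 FPKM in HIF-PPN hearts and 177 FPKM in control hearts. Ckm was lower, at 1069 FPKM in HIF-PPN hearts and 1236 FPKM in control hearts. Both expressed erythroid markers were lower (94.0 FPKM in HIF-PPN hearts and 129 FPKM in control hearts), and markers of Schwann cells and neurons summed to 7.26 FPKM in HIF-PPN hearts and 8.13 FPKM in control hearts. Of the 4 expressed ones of this last list, 2 were higher and 2 lower. Dbh (0.973 FPKM in HIF-PPN hearts and 3.40 FPKM in control hearts) passed the filter through control hearts alone. Tubb3 (1.44 FPKM in HIF-PPN hearts and 0.601 FPKM in control hearts) passed it through HIF-PPN hearts alone.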

How the data were processed

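Ventricular RNA of 3 HIF-PPN and 3 control mice was enriched for poly A RNA and sequenced (paired-end). The authors aligned reads by Tophat with Bowtie, took gene levels from Cufflinks and compared groups in Cuffdiff, with a later analysis on mm10. The deposited values are FPKM, 1 per group and gene, in which the authors had merged the 3 hearts. Merging removes the spread between mice, and the depth per sample is unknown. A column of the authors' log2 fold changes was not used. Of 21956 symbols compared, 99.2% overlapped the RefSeq gene of that name on GRCm38.p6, so positions are given on that build, 1-based.

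The row with the highest mean was kept for each symbol, and the log2 ratio of HIF-PPN over control was computed without a pseudocount. Genes that reached 1 FPKM in either group are called expressed. A level of 2-fold, the fold of the study, and of 1.5-fold were used as descriptions. The ratios and counts were run on values simulated without noise, which checks the arithmetic only. The 7 genes and the lists (7 transporter families, regulators and anchors, HIF1 targets and 10 sets of cell markers) were chosen with earlier results of these data known. Named are the 7 genes, the 4 most abundant genes of each family or regulator list and every expressed gene of these lists that differed 1.5-fold. Some others, such as Car14, are named for comparison. Some genes of these families and regulators are not reported here, and they were left out of the lists and of every count, share and median over a list. Genes of like pattern were not sought, since 1 value a group gives no pattern. The alternatives were pseudocounts, scalings, filters on low values and summed rows. Promoter windows were taken from RefSeq, and the mouse genome of the older build was not used here. Python 3.11.15, numpy 2.4.6, pandas 2.3.3 and matplotlib 3.10.9 were used.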

Additional observations from a re-analysis of the deposited data

How the results depend on the processing

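Of 156 values recomputed under the alternatives, 148 moved by less than 0.1 on the log2 scale or kept their count or share. Many of them could not do otherwise, so this count is no measure of robustness. Summing rows changed no value, since no gene of these lists had more than 1 row. Each scaling moved all log2 fold changes by the same amount (0.061, −0.010 or −0.014), which is below that limit. Slc8a1 ranged from −0.77 to −0.67. The median log2 fold change of sodium-calcium exchangers was −0.45 for genes at 1 FPKM or more in either group, −0.14 with a pseudocount of 5 FPKM, and −0.14 both with no filter and with 1 FPKM required in both groups. That of cation-chloride cotransporters was 0.18 as reported and 0.61 with no filter. That of sodium-proton exchangers was −0.32 with that filter, −0.21 with a pseudocount of 1 FPKM, −0.087 with a pseudocount of 5 FPKM, −0.21 with no filter and −0.00082 at 5 FPKM or more. Scaling to the same summed FPKM turned the sign of 2 of the 7 genes, Slc4a3 (0.055) and Atp2b1 (0.028). No paired analysis was possible because the 3 hearts of each group are merged into 1 value, and leaving out a heart was not possible for the same reason. With no replicates and no read counts, differences of the size seen at the other 6 genes cannot be set against an error.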

Other observations

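Of the 51 transporter genes listed, 23 were below 1 FPKM in both groups. Of these, 19 had a value above 0 in both, of which 12 were higher and 7 lower in HIF-PPN hearts, while 48.6% of the 3444 genes in the whole table at such levels were higher. Among them were Slc12a5, which encodes the neuronal potassium-chloride cotransporter KCC2, at 0.733 FPKM in HIF-PPN hearts and 0.288 FPKM in control hearts, and Slc4a1, the anion exchanger gene of red blood cells, at 0.760 FPKM in HIF-PPN hearts and 0.304 FPKM in control hearts. Slc9a3, which encodes the sodium-proton exchanger of kidney and gut, was at 0.0443 FPKM in HIF-PPN hearts and 0.399 FPKM in control hearts. Nos1, the neuronal nitric oxide synthase gene on the list of regulators, was at 0.993 FPKM in HIF-PPN hearts and 0.131 FPKM in control hearts. These examples were picked with their values in view, and the counts behind such low values are unknown.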
